A study of Caenorhabditis elegans with 8 samples.

Results

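The col family of cuticle collagens was examined in whole *Caenorhabditis elegans*, as 153 genes out of 25478 that had a probe set of their own on the array. Members were all rows of the deposited value table whose single gene symbol in the platform annotation was col- followed by a number, with the brightest row kept for each gene. Each of the 153 genes had 1 such row, and all 153 matched a RefSeq gene of the same symbol, 151 of them protein-coding and 2 pseudogenes (col-66 and col-182). RefSeq holds 159 col genes in assembly WBcel235, and 6 of these had no row of their own here. Compared were mir-71(n4115), a strain carrying 1 mutant allele of the microRNA gene mir-71, and wildtype (N2), with 4 samples of each. All 8 samples were untreated populations synchronised by bleaching, fed *E. coli* OP50 and taken on day 1 of adulthood, when hermaphrodites carry germ line and embryos. RNA of whole worms was hybridised to 1 single-colour Affymetrix array per sample. Replicates carry numbers from 1 to 4 in the labels, with nothing on whether they were grown as separate cultures. Each p-value therefore measures the spread between these samples, which may be technical.

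The cuticle is the extracellular coat of the worm, made by the epidermis and replaced at each moult. Its main proteins are small collagens with short runs of Gly-X-Y repeats, encoded by a large gene family of which the col genes are the greater part. They are made in waves within each moulting cycle, each gene at its own time, and some are used at 1 stage only: col-2 in the dauer larva, col-17 in larvae, and col-7 and col-19 in the adult, where the heterochronic factor LIN-29 turns them on. Procollagen chains are hydroxylated on proline in the endoplasmic reticulum, cut by proteases on secretion and cross-linked in the coat. The numbered name follows the sequence family and not the place: col-99 encodes a transmembrane collagen and is not a part of the cuticle.

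The values were log2 signals, and the array medians over the 26192 named probe sets lay between 5.20 and 5.30. Markers of intestine and body wall muscle gave bright rows. The mean log2 signal of 12 intestine genes was 10.63 to 10.66 in the mutants and 10.58 to 10.79 in the wild type. That of 6 body wall muscle genes was 10.08 to 10.45 in the mutants and 9.78 to 10.47 in the wild type. Not every list was bright, and 8 sperm genes averaged 4.88 to 5.38 in the mutants and 5.70 to 6.07 in the wild type. Wild-type replicate 4 stood apart from its group. Across probe sets it correlated at 0.986 to 0.993 with the mutant arrays and at 0.961 to 0.976 with wild-type replicates 1 to 3. It was kept in the wild type as labelled, and results are given with and without it. Of the 153 members, 101 had a mean signal below the median row (5.24), and detection above background could not be judged without scanner files. Rows of near-identical collagens may share probes, which were not examined here.

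In mir-71(n4115) worms 2 members of the family fell, col-135 and col-12, and 0 rose. The remaining 151 did not pass the test (limma, Benjamini-Hochberg over 26192 probe sets, threshold 0.05). Over all probe sets tested, 1.31% fell and 0.645% rose, so the share of the family called, 2 of 153, lay at the background. At an unadjusted p under 0.05, 12 members were higher in the mutants, 7.84% of the family against 13.4% of all probe sets. At the same limit 13 were lower, 8.5% of the family against 12.9% of all probe sets. The median log2 difference over the family, mutant minus wild type, was 0.07, against 0.02 over all genes, and 60.8% of members were higher in the mutants, against 51.8% of all genes. In whole worms, fewer cells that use a gene and less of its RNA per cell cannot be told apart.

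**Figure D1:**
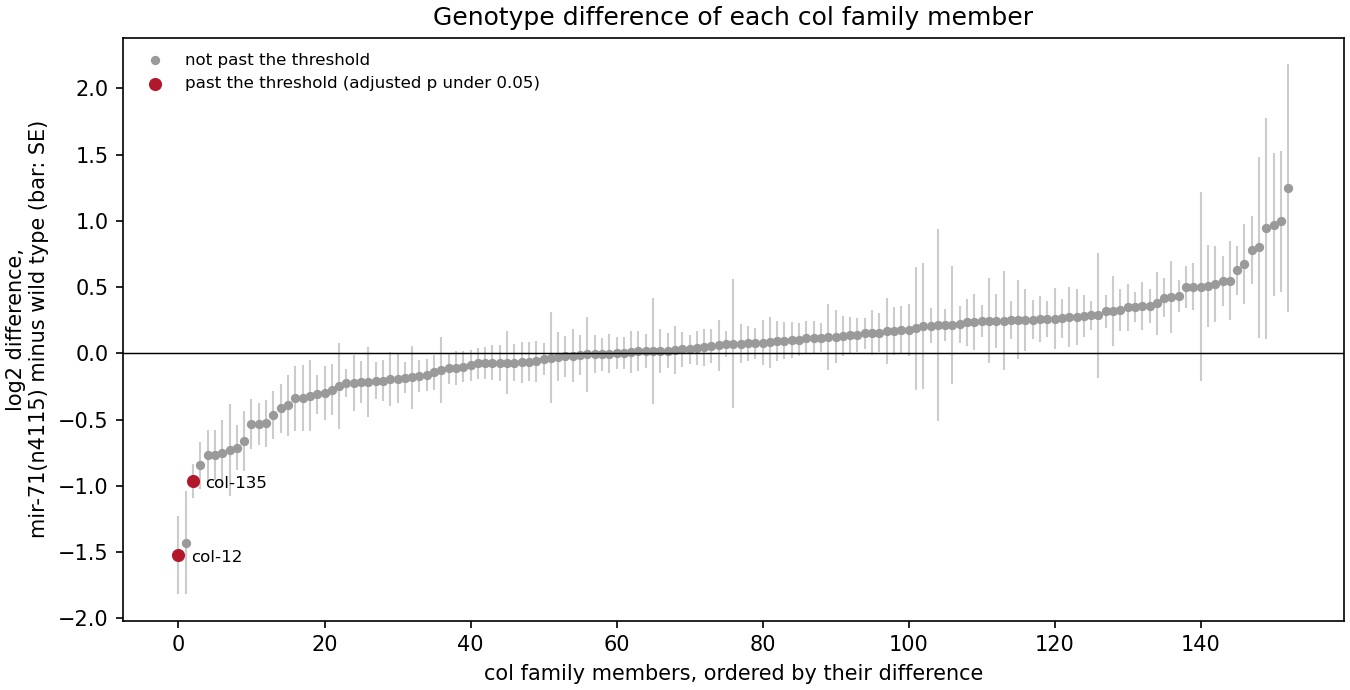
Each point is 1 of the 153 col family members, ordered by its log2 difference, mir-71(n4115) minus wild type (4 arrays each); bars are standard errors and red points passed the test. The differences run from -1.52 for col-12 to 1.25 for col-125, and col-12 and col-135 are the members past the threshold.

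The lowest p of the family was that of col-135, on chromosome IV. Its log2 signal read 8.09, 7.90, 8.35 and 8.08 in mutant replicates 1 to 4, against 8.97, 9.14, 9.20 and 8.97 in wild-type replicates 1 to 4. The groups did not overlap, and wild-type replicate 4 lay at the low end of the wild type, well above the highest mutant array. The mean was 8.10 ± 0.19 in the mutants and 9.07 ± 0.12 in the wild type (SD, n = 4 each), a log2 difference of -0.96 ± 0.13 (SE; limma, adjusted p = 0.0124), or a mutant signal 0.512 times the wild-type one. Without wild-type replicate 4 its adjusted p was 6.86e-04. It lost the call when mutant replicate 2 was left out (adjusted p = 0.0517), and when wild-type replicate 2 was (adjusted p = 0.0562).

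The gene with the largest difference was col-12, whose promoter is widely used to drive genes in the epidermis. Its signal read 2.82, 4.14, 3.31 and 3.55 in mutant replicates 1 to 4, against 5.60, 4.73, 4.76 and 4.83 in wild-type replicates 1 to 4. All of the mutant arrays lay below all of the wild-type ones, and replicate 4 of the wild type was with replicates 2 and 3 of its group. The row was dim in both groups, below the median row, so the size of the fold is uncertain. The mean was 3.45 ± 0.55 in the mutants and 4.98 ± 0.41 in the wild type (SD, n = 4 each), a log2 difference of -1.52 ± 0.29 (SE; limma, adjusted p = 0.0397). It was lost in 6 of the 8 fits that left out 1 array, with adjusted p up to 0.113, and kept without wild-type replicate 4 (-1.57, adjusted p = 0.00501) and without mutant replicate 2. The call was also lost after a trend of the deviations with gene length was removed (-1.36, adjusted p = 0.0548). In that fit col-170 rose and col-135 and col-168 fell, 1 and 2 members, where 0.62% and 1.13% of all probe sets rose and fell. With wild-type replicate 4 left out as well, 44 members rose and 10 fell, or 28.8% and 6.54% of the family, against 16.5% and 17.3% of all probe sets.

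Next to col-12 on chromosome V lies col-13, a tandem duplicate of it that encodes a closely similar collagen. In the RefSeq order no other protein-coding gene lies between them. The signal of col-13 read 4.69, 4.75, 4.33 and 5.08 in mutant replicates 1 to 4, against 4.16, 4.27, 3.13 and 4.59 in wild-type replicates 1 to 4. The mutants were on the higher side here, and the groups overlapped through wild-type replicate 4. The log2 difference was 0.68 ± 0.30 (SE; limma, adjusted p = 0.190). With replicate 4 of the wild type left out it was 0.86, which passed (adjusted p = 0.0406). The duplicates had differences of opposite sign, of which that of col-12 passed the test over all arrays, and the difference between them was not tested. Both rows lay below the median row, and probes that the duplicates may share were not examined.

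**Figure D2:**
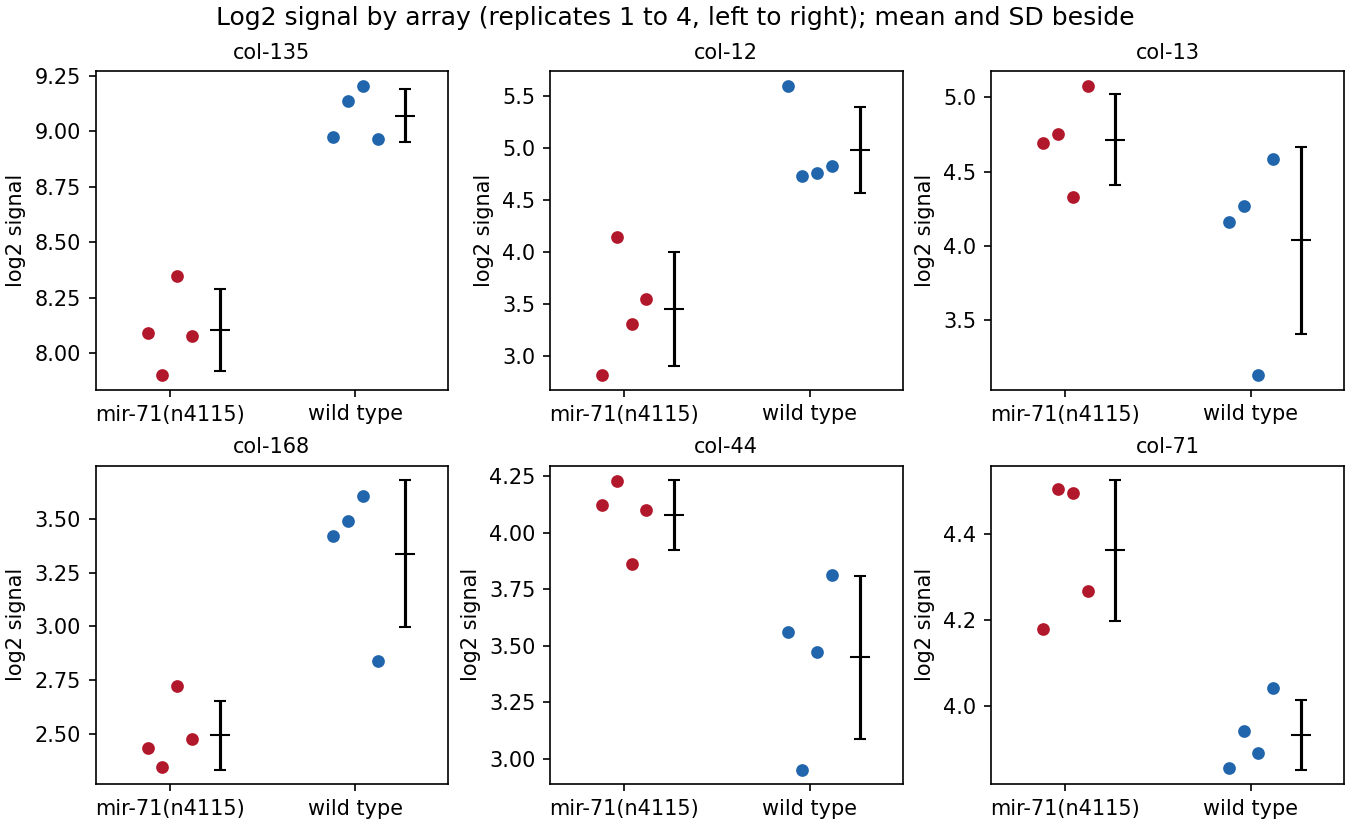
Log2 signal of 6 members in each array, with mir-71(n4115) in red on the left and wild type in blue on the right, and the mean with its SD beside each group (n = 4). col-135, col-12 and col-168 lie lower in every mutant array, col-44 and col-71 lie higher, and the groups of col-13 overlap.

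Counting each member whose 4 mutant arrays lay on one side of its 4 wild-type arrays, 8 were lower and 7 higher in the mutants, which is 5.23% and 4.58% of the family. Over all probe sets the shares were 5.09% and 6.06%, so the family lay near the background in both directions. Beside col-12 and col-135, the lower ones were col-168, col-146, col-142, col-95, col-147 and col-181. For col-168 the mutants read 2.44, 2.35, 2.72 and 2.47, against 3.42, 3.49, 3.60 and 2.84 in the wild type, a difference of -0.84 ± 0.18 (SE; limma, adjusted p = 0.0509). The row was dim, and wild-type replicate 4 stood between the mutants and the other wild-type arrays. For col-142, a gene regulated by the DBL-1 body size pathway, the mutants read 4.07, 4.67, 4.06 and 4.65, against 5.06, 5.19, 5.40 and 4.86 in the wild type (-0.77 ± 0.19, adjusted p = 0.0763). Its neighbour col-141, reported with it as a target of that pathway, overlapped between groups, at 4.68 to 5.45 in the mutants and 4.39 to 5.14 in the wild type (0.28 ± 0.21, adjusted p = 0.411). The others had differences of -0.77 (col-146), -0.71 (col-95), -0.53 (col-147) and -0.22 (col-181), with adjusted p from 0.0707 to 0.211.

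The members whose mutant arrays all lay higher were col-44, col-170, col-71, col-64, col-43, col-36 and col-50. Their log2 differences ran from 0.63 for col-44 to 0.29 for col-50, with adjusted p from 0.0925 (col-71) to 0.146 (col-50). For col-71 the mutants read 4.18, 4.51, 4.50 and 4.27, against 3.85, 3.94, 3.89 and 4.04 in the wild type. For col-44 they read 4.12, 4.23, 3.86 and 4.10, against 3.56, 2.95, 3.47 and 3.81 in the wild type, where the lowest mutant array was close to the highest wild-type one. All 7 of these rows lay below the median row. col-44 is next to col-9, which differed by -0.07, and col-170 lies in a run of 5 neighbouring col genes on chromosome X that also holds col-168. In that run the differences were -0.34 for col-167, -0.84 for col-168, -0.30 for col-169, 0.50 for col-170 and 0.25 for col-171, so the sign changed between neighbours. By limma 0 of the 5 passed, and 2, col-168 and col-170, had an unadjusted p under 0.05. Over all probe sets 13.4% were higher and 12.9% lower at that limit.

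Several further members were lower in the mutants than in wild-type replicates 1 to 3 but not than in wild-type replicate 4, and they did not pass over all arrays. They were named because wild-type replicate 4 lay farthest below the median of wild-type replicates 1 to 3 for them. col-119 read 10.83, 10.76, 10.70 and 10.80 in the mutants, against 11.68, 11.64, 12.04 and 10.72 in the wild type. col-8 read 9.75, 9.60, 10.02 and 9.62 in the mutants, against 10.53, 10.45, 10.88 and 9.77 in the wild type. col-159 read 4.93, 5.41, 5.24 and 5.66 in the mutants, against 6.76, 6.93, 7.69 and 5.57 in the wild type. For each of them wild-type replicates 1 to 3 were above every mutant array while wild-type replicate 4 was among the mutants. The log2 differences were -0.75 ± 0.25 for col-119 (adjusted p = 0.121), -0.66 ± 0.22 for col-8 (adjusted p = 0.124) and -1.43 ± 0.39 for col-159 (SE; limma, adjusted p = 0.0890). Without replicate 4 they were -1.02, -0.87 and -1.82, with adjusted p of 5.01e-04, 0.00246 and 7.53e-04. col-93 behaved likewise, at 7.73 to 7.95 in the mutants, 8.70 to 9.38 in wild-type replicates 1 to 3 and 7.45 in replicate 4 (-0.73 ± 0.35, adjusted p = 0.210; -1.11 without replicate 4, adjusted p = 0.00116). col-118, at 4.63 to 5.15 in the mutants, read 5.25 to 5.81 in wild-type replicates 1 to 3 and 4.51 in replicate 4. Leaving out the array on which these members were picked enlarges each fall by construction, so the p-values without it are a description. In that fit 17.8% of all probe sets fell.

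Without wild-type replicate 4, 26 members rose and 14 fell, where 19.3% of all probe sets rose and 17.8% fell. Those shares of the family, 17% and 9.15%, were below the shares of all probe sets. With arrays weighted by their fit to the group means, 29 members rose and 15 fell, 19% and 9.8% of the family, against 21.5% and 19.8% of all probe sets. All 40 members called without wild-type replicate 4 had the same sign over all 8 arrays. In 21 of the 26 that rose and 10 of the 14 that fell, wild-type replicate 4 was nearer to the mutant mean than to the mean of the other wild-type arrays. These members were picked by a fit that left this array out, which favours such a position. The same count was not made over all probe sets, so it says nothing particular to the family. Against wild-type replicates 1 to 3, replicate 4 lay above all of them for 80 members and below all of them for 29, or 52.3% and 19% of the family, against 37.6% and 34.7% of all genes. The median shift of replicate 4 from their median was 0.20 over the family and 0.01 over all genes.

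**Figure D3:**
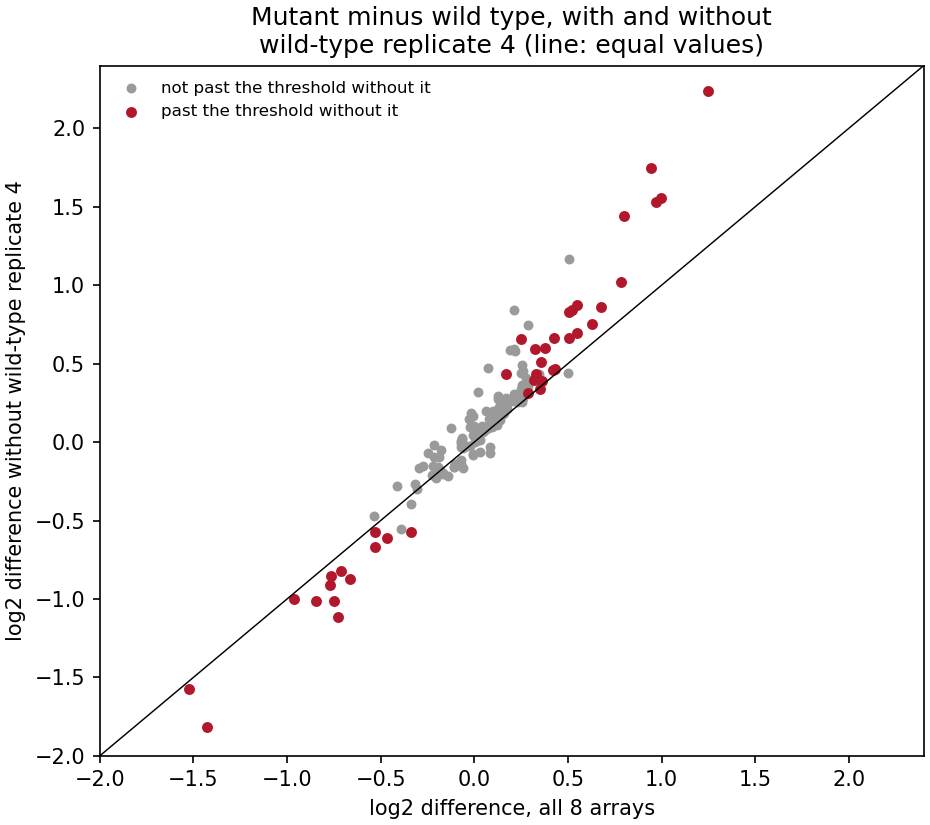
Log2 difference of each of the 153 members, mutant minus wild type, over all 8 arrays (horizontal) and without wild-type replicate 4 (vertical); red points passed the test without it and the line marks equal values. Leaving the array out moved most members away from 0, col-125 from 1.25 to 2.24 and col-159 from -1.43 to -1.82, while col-12 and col-135 stayed near the line.

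Some members varied widely among the mutant replicates. In 18 members the 4 mutant arrays spanned more than 1 log2 unit, 11.8% of the family against 4.83% of all genes. Among the 4 wild-type arrays 24.2% of the family and 23.9% of all genes did so, and among wild-type replicates 1 to 3 4.58% and 3.67%, so in the wild type the family lay near all genes. Of the 52 members above the median row, 16 spanned more than 1 in the mutants, 30.8% against 3.57% of all genes above it. In the wild type 44.2% of these members and 31.8% of those genes did so, and among wild-type replicates 1 to 3 3.85% and 2.13%. The limit of 1 was set after the values were seen; just inside it were col-80 (1.06) and col-120 (1.19), and just outside col-77 (0.99) and col-150 (0.93). No list test was made, and these shares are a description.

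The widest was col-161, at 3.32, 5.90, 3.79 and 5.03 in mutant replicates 1 to 4, against 3.04, 3.88, 4.08 and 6.18 in wild-type replicates 1 to 4. col-157 read 5.60, 8.06, 5.87 and 7.72 in the mutants, against 5.46, 4.83, 4.91 and 8.27 in the wild type. col-94 read 7.89, 10.30, 8.12 and 9.25 in the mutants, against 7.78, 7.38, 8.01 and 10.38 in the wild type. In each of these, mutant replicates 2 and 4 and wild-type replicate 4 were high, and the other 5 arrays of both genotypes were low. col-125 read 7.28, 9.59, 7.33 and 8.59 in the mutants, against 5.77, 6.48, 5.63 and 9.91 in the wild type. col-81 read 8.87, 11.05, 9.05 and 10.20 in the mutants, against 8.45, 7.95, 8.66 and 10.91 in the wild type. The same 3 arrays were high. For both genes, as for col-157, mutant replicates 1 and 3 also lay above wild-type replicates 1 to 3.

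This order recurred in nearly all of the 18. Mutant replicates 2 and 4 were the highest mutant arrays in 17 of them, all but col-60, or 94.4%, against 33.3% of the 1230 genes of the whole table that spanned more than 1 log2 unit in the mutants. Mutant replicate 2 was the highest in 17, all but col-17. Wild-type replicate 4 was above wild-type replicates 1 to 3 in 16, all but col-60 and col-12, or 88.9%, against 48.4% of those 1230 genes. The remaining members of the 18 were col-160, col-38, col-139, col-129, col-42, col-178, col-155, col-34, col-120 and col-80. Of these, col-42 read 8.65, 10.17, 8.94 and 9.61 in the mutants, against 8.56, 8.60, 8.65 and 10.43 in the wild type. Its wild-type replicates 1 to 3 lay within 0.09 of each other while replicate 4 was 1.78 above the highest of them.

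**Figure D4:**
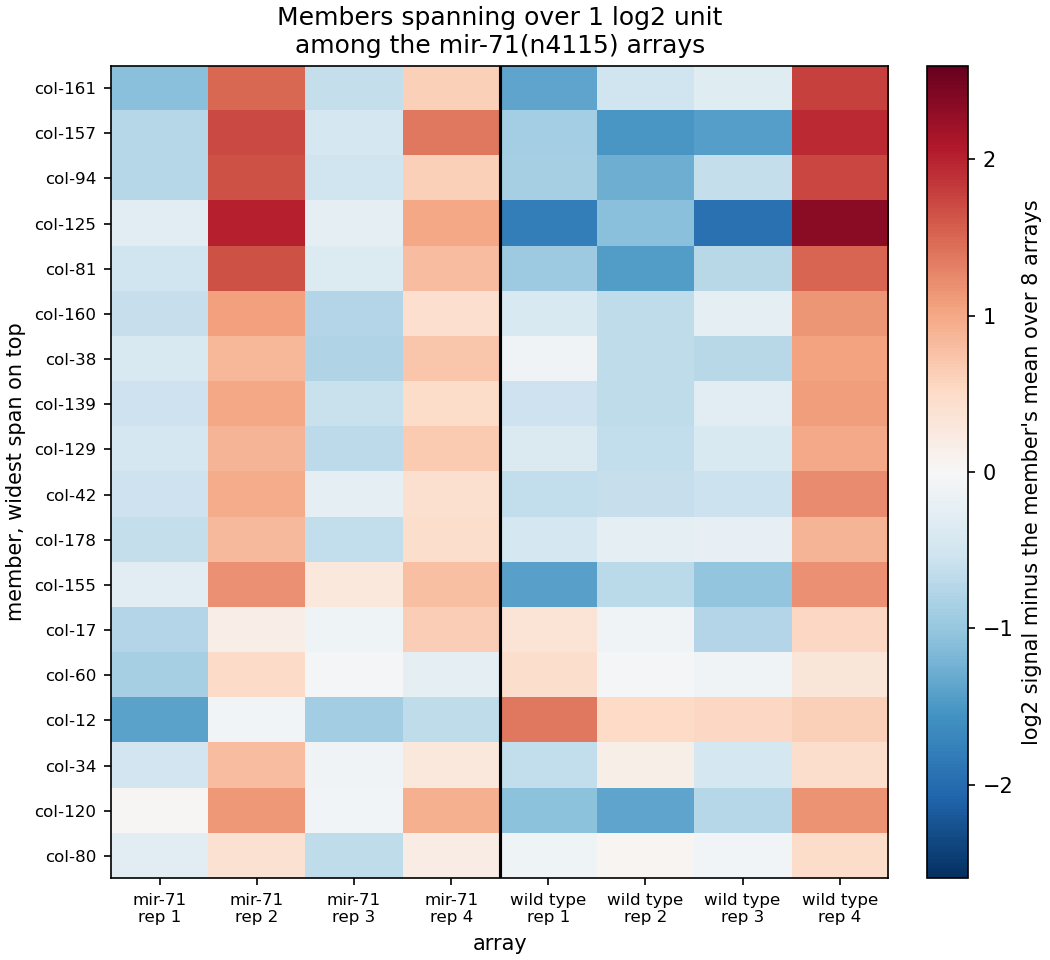
Log2 signal of the 18 members whose mutant arrays spanned more than 1 log2 unit, as the deviation from each member's mean over the 8 arrays (red above, blue below), with mir-71(n4115) replicates 1 to 4 left of the line and wild-type replicates 1 to 4 right of it. Mutant replicates 2 and 4 and wild-type replicate 4 are red in most rows.

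For these genes the genotype difference did not pass the test over all arrays, col-12 excepted. col-120, which is needed for the long life of insulin receptor mutants, as are col-10 and col-13, read 5.88, 6.97, 5.78 and 6.78 in the mutants, against 4.80, 4.48, 5.12 and 7.02 in the wild type. Every mutant array lay above wild-type replicates 1 to 3 and below replicate 4. Its log2 difference was 1.00 ± 0.53 (SE; limma, adjusted p = 0.252), and 1.55 without replicate 4 (adjusted p = 0.00479). The most positive difference, that of col-125, was 1.25 ± 0.93 (adjusted p = 0.401), and 2.24 without replicate 4 (adjusted p = 0.0104). Wild-type replicate 4 was the highest array for both genes, so leaving it out enlarges the rise by construction. In that fit 19.3% of all probe sets rose. For col-160 and col-178 the difference was 0.07 ± 0.49 and 0.02 ± 0.40 (adjusted p = 0.934 and 0.978), and the sign turned negative in some fits that left out 1 array. A row shared by col-117, col-3 and col-125, listed under 2 probe sets with identical values and outside the 153, read 6.89, 8.08, 6.91 and 7.66 in the mutants, against 7.08, 6.48, 6.87 and 8.54 in the wild type, with the same 3 arrays high.

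Over all 153 members, the deviation of a mutant array from the mutant mean was set against the deviation of wild-type replicate 4 from the mean of wild-type replicates 1 to 3. Pearson's r across members was 0.709 for mutant replicate 2 and 0.508 for mutant replicate 4, and -0.642 and -0.609 for mutant replicates 1 and 3. Over all 25478 genes the same values were 0.430, 0.274, -0.251 and -0.374 for replicates 2, 4, 1 and 3. Genes are not independent replicates, the 4 mutant deviations sum to 0 for each gene, and the values are a description with no test. Spearman's rho over the members was 0.424, 0.416, -0.429 and -0.376 in the same order, smaller in size than r. Over all genes rho was 0.407, 0.285, -0.252 and -0.361. By rank the family thus lay near all genes for mutant replicates 2 and 3, and farther from 0 than all genes for replicates 4 and 1.

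**Figure D5:**
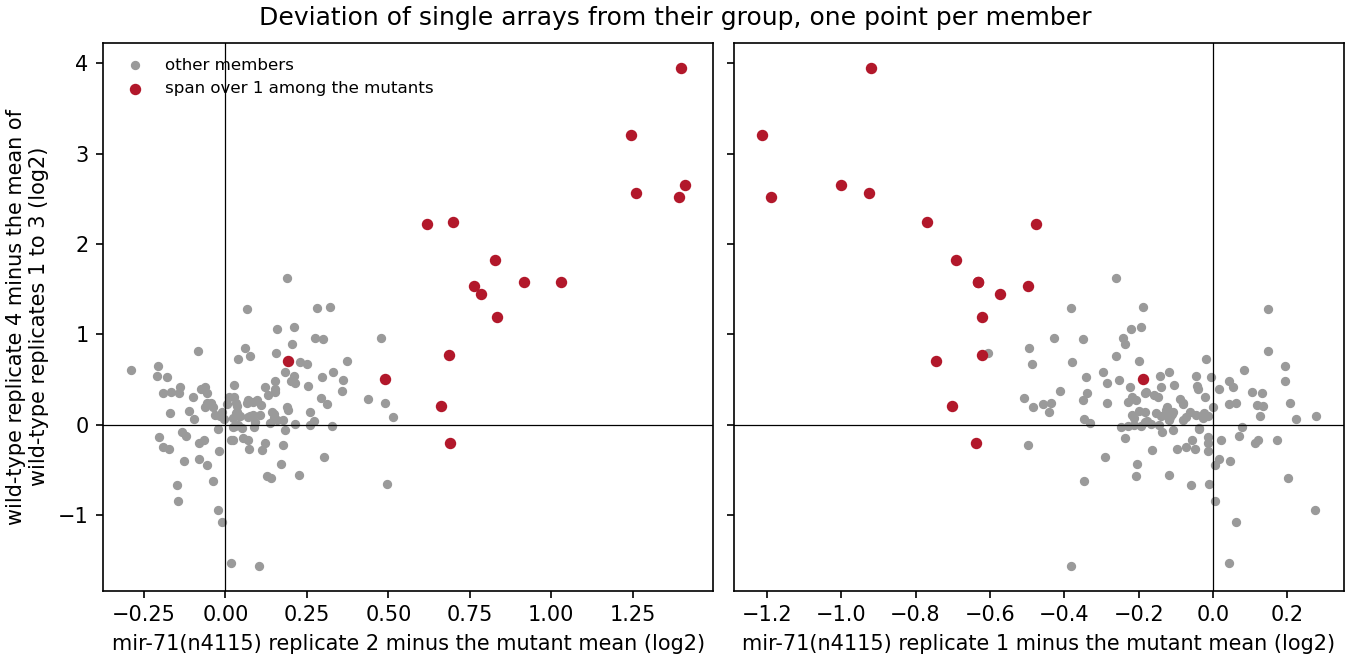
Deviation of wild-type replicate 4 from the mean of the other wild-type arrays against the deviation of mutant replicate 2 (left) and of mutant replicate 1 (right) from the mutant mean, 1 point per col family member, in log2 units. The 18 widely spread members, in red, lie mostly at the upper right for mutant replicate 2 (r = 0.709) and at the upper left for mutant replicate 1 (r = -0.642).

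Several other gene lists varied in the same arrays. The mean log2 signal of 14 other cuticle collagens of the strut, roller and squat group was 5.38, 5.97, 5.42 and 6.02 in mutant replicates 1 to 4, against 5.27, 5.33, 5.08 and 6.03 in wild-type replicates 1 to 4. Among them sqt-3, a collagen of the body shape genes named after its values were seen, read 8.30, 10.08, 8.18 and 9.28 in the mutants, against 6.76, 7.19, 7.18 and 9.90 in the wild type. The mean of 6 muscle genes was 10.12, 10.45, 10.08 and 10.38 in the mutants, against 9.84, 9.87, 9.78 and 10.47 in the wild type, and that of 5 pharynx genes 8.52, 8.74, 8.35 and 8.74, against 8.06, 8.29, 8.002 and 8.86. The mean of 15 oocyte genes was 11.18, 11.31, 11.11 and 11.29 in the mutants, against 10.94, 11.10, 10.92 and 11.30 in the wild type. In these 4 lists mutant replicates 2 and 4 and wild-type replicate 4 had the highest means of their groups. The same order held for 8 sperm genes and for the epidermis and moulting markers, collagen enzymes and collagen regulators given below. For 13 epidermis genes the means were 8.73, 8.83, 8.64 and 8.77 in the mutants, against 7.85, 7.99, 7.67 and 8.76 in the wild type. The neuron, intestine, embryo and furrow collagen lists did not follow that order. The mean of 9 neuron genes was 9.44, 9.38, 9.43 and 9.37 in the mutants, against 9.06, 9.03, 8.97 and 9.41 in the wild type, with mutant replicates 2 and 4 the lowest of the mutants. For 12 intestine genes wild-type replicate 4 was the lowest array, at 10.58, and for 10 embryo genes and 5 furrow collagens mutant replicate 3 had a higher mean than mutant replicate 2. The part of these tissues in the collagen values was not tested. With the length trend taken out, 19 members spanned more than 1 log2 unit and mutant replicates 2 and 4 were on top in 17.

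Of the stage-specific collagens named above, 0 of 4 were called by limma, and 0 had an unadjusted p under 0.05. Of all probe sets, 13.4% were higher and 12.9% lower at that limit. col-19, made in the adult, read 11.02, 11.16, 10.89 and 10.95 in the mutants, against 10.74, 10.69, 10.66 and 11.09 in the wild type (0.21 ± 0.13 SE, adjusted p = 0.322). col-7, the other adult collagen, read 9.45, 10.19, 9.80 and 10.31 in the mutants, against 9.40, 10.01, 9.53 and 10.32 in the wild type (0.12 ± 0.25, adjusted p = 0.773). Both rows were bright in every array, and the groups overlapped in both. The larval gene col-17 read 4.56 to 5.96 in the mutants and 4.56 to 5.86 in the wild type (-0.03 ± 0.35, adjusted p = 0.962), and the dauer gene col-2 3.41 to 3.56 in the mutants and 3.39 to 3.93 in the wild type (-0.14 ± 0.13, adjusted p = 0.509). col-7 lies next to col-62, which read 4.62, 5.27, 4.84 and 5.16 in the mutants, against 4.05, 3.73, 4.09 and 4.90 in the wild type (0.78 ± 0.25, adjusted p = 0.116; named after its values were seen).

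Among the other members with a known role, col-10, whose promoter also serves for epidermal expression, read 10.45 to 10.69 in the mutants and 9.87 to 10.58 in the wild type (0.33 ± 0.16, adjusted p = 0.218). col-41, a target of DBL-1 signalling, differed by 0.21 ± 0.12 (adjusted p = 0.273). The transmembrane collagen col-99 read 5.52, 5.12, 5.35 and 5.32 in the mutants, against 4.58, 4.70, 4.70 and 5.31 in the wild type (0.50 ± 0.18 SE, adjusted p = 0.130; 0.67 without replicate 4, adjusted p = 0.00307). Among the 10 brightest rows, col-124 (-0.18), col-143 (-0.53), col-92 (0.42) and col-101 (0.13) had adjusted p from 0.131 to 0.699. For col-143 the mutants read 10.22, 11.15, 10.61 and 10.65, against 11.14, 11.07, 11.18 and 11.38 in the wild type, and mutant replicate 2 alone overlapped the wild type.

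Members sat on all 6 chromosomes, with 37 on IV, 31 on V, 27 on X, 24 on II, 22 on I and 12 on III. The median log2 difference ran from -0.02 on III to 0.13 on X. Of the 18 widely spread members 7 were on V. In 19 places 2 or more col genes are direct neighbours among protein-coding genes, with 41 members among them. Neighbours did not share a direction at several of these. On chromosome III, col-93 had low values in wild-type replicate 4 (7.45, against 8.70 to 9.38 in replicates 1 to 3), while the next gene, col-94, had a high one (10.38, against 7.38 to 8.01). On V, col-159 read 5.57 in replicate 4, against 6.76 to 7.69 in replicates 1 to 3, and its neighbour col-160 read 11.71, against 9.91 to 10.32.

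The cuticle collagens with names from mutant phenotypes were not called either. Of 5 furrow collagens, which form the bands around the annuli, 0 rose and 0 fell (limma; 2 at an unadjusted p under 0.05), with 5 higher in the mutants and a median of 0.15. dpy-2 read 5.66, 5.67, 6.001 and 5.78 in the mutants, against 4.70, 4.96, 5.24 and 5.27 in the wild type (0.74 ± 0.16 SE, adjusted p = 0.0509), and dpy-3 differed by 0.59 ± 0.17 (adjusted p = 0.101). Of the 14 strut, roller and squat collagens 0 were called (limma, with 2 at an unadjusted p under 0.05) and the median was 0.24. At the unadjusted limit 13.4% of all probe sets were higher in the mutants and 12.9% lower. bli-1, a strut collagen, differed by 0.79 ± 0.24 (adjusted p = 0.104) and dpy-14 by 0.31 ± 0.10 (adjusted p = 0.121). Without wild-type replicate 4, 2 of the 5 and 4 of the 14 rose and 0 fell, in a fit where 19.3% of all probe sets rose and 17.8% fell.

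Of 13 enzymes and partners that process collagens 0 were called (limma, with 2 at an unadjusted p under 0.05), with a median of 0.04. Among all probe sets 13.4% were higher and 12.9% lower at that limit. dpy-18, a catalytic subunit of prolyl 4-hydroxylase, read 9.79, 10.01, 9.77 and 9.95 in the mutants, against 8.76, 9.20, 8.80 and 9.98 in the wild type (0.70 ± 0.25 SE, adjusted p = 0.136). pdi-1, a protein disulphide isomerase, read 10.59, 10.55, 10.74 and 10.73 in the mutants, against 11.10, 11.09, 11.23 and 10.71 in the wild type (-0.38 ± 0.14, adjusted p = 0.135). Replicate 4 of the wild type was at the mutants' level for both. Without it, 5 of the 13 rose and 2 fell, against the same 19.3% and 17.8% of all probe sets.

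Of 19 regulators of collagen genes 0 were called (limma, with 7 at an unadjusted p under 0.05). At that limit 13.4% of all probe sets were higher and 12.9% lower. Of the 19, 16 were higher in the mutants and the median was 0.47. blmp-1, a zinc finger factor of the moulting cycle, read 8.76, 8.87, 8.58 and 8.80 in the mutants, against 7.20, 7.71, 7.22 and 8.52 in the wild type (1.09 ± 0.27 SE, adjusted p = 0.0761). bed-3, which is needed for moulting and vulval development, differed by 0.77 ± 0.19 (adjusted p = 0.0736). Every mutant array was above every wild-type one for both genes. Without wild-type replicate 4, 12 of the 19 rose and 2 fell, where 19.3% of all probe sets rose and 17.8% fell. Epidermis markers, 13 genes, averaged 8.64 to 8.83 in the mutants, 7.67 to 7.99 in wild-type replicates 1 to 3 and 8.76 in replicate 4. This list is not separate from the regulators, as elt-1, elt-3, nhr-23, nhr-25 and grh-1 are in both. By limma 0 of the 13 epidermis markers were called, with 8 at an unadjusted p under 0.05, against the same 13.4% and 12.9%. Moulting markers, 13 genes, averaged 7.90 to 8.04 in the mutants, 7.11 to 7.24 in wild-type replicates 1 to 3 and 7.92 in replicate 4. Of these 13, 2 rose (limma, adjusted p under 0.05), where 0.645% of all probe sets rose. For both marker lists wild-type replicate 4 lay at the mutants' level, and their part in the collagen values was not tested.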

How the data were processed

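The submitters' processing notes list Partek 6.6 together with RMA, which adjusts for background, brings arrays to a common scale and combines each probe set's probes. The settings, and the genome build, are not stated in those notes. The authors deposited 1 table of 29317 rows by 8 arrays, whose log2 scale was read from its values; no other per-sample column was present. Of its rows, 26192 had a gene in the platform annotation, 25546 of them with 1 symbol and 646 with several, and the other 3125 are unnamed here. Chromosomes, neighbours and gene lengths came from RefSeq's table of WBcel235; no coordinates are given. The median gene length was 1209 bases in the family and 2068.5 over protein-coding genes.

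The 26192 rows were fitted by group mean without covariates in limma 3.58.1 (R 4.3.3), using lmFit and eBayes with 2-sided tests, with Benjamini-Hochberg adjustment over all rows and a threshold of 0.05. The fit was tested on simulated data drawn with independent noise in each row. They held no array standing apart as wild-type replicate 4 did, so that case was not tested. Figures were drawn with matplotlib 3.10.9. With 4 arrays per group the median standard error over the family was 0.17, and the number of arrays limits the precision. No further normalisation was applied. The length trend was a lowess fit (span 0.3) of each array's deviations on log2 gene length, removed over 25495 rows.

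Members, lists and named genes were chosen with earlier results of these data known. Named were the members past the threshold, the 8 largest rises and falls among members whose arrays separate, the 10 brightest, those with a textbook role, those for which wild-type replicate 4 lay farthest from the rest, and the 2 lowest p of each other list. The 18 widely spread members, neighbours of named genes, col-62 and sqt-3 were named after their values were seen. No member's row repeated another row's values.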

Additional observations from a re-analysis of the deposited data

Results flagged for a closer look

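Among 57 genes looked at in each group of 4 arrays, 4 had a highest array farther from the other 3 than Dixon's critical value for 4 values allows (gap over the whole range). Chance alone flags about 1 in 20 independent groups, or 5.7 of the 114 examined, against the 4 seen. The genes share the same arrays and many vary together, and 3 of the 4 flags were at wild-type replicate 4. The count therefore cannot decide whether the flags exceed chance. Some of the 57 genes were chosen because wild-type replicate 4 lay far from the rest. For col-42 wild-type replicate 4 read 10.43, against 8.56 to 8.65 in the other wild-type arrays (ratio 0.950). For col-129 the same array read 9.01, against 7.41 to 7.66 (ratio 0.840), and for col-99 5.31, against 4.58 to 4.70 (ratio 0.830). For col-12 wild-type replicate 1 read 5.60, against 4.73 to 4.83 in the others (ratio 0.889).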

How the results depend on the processing

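The counts of called members, 0 that rose and 2 that fell, depended on single arrays. Leaving out each array in turn gave 0 to 26 that rose and 0 to 14 that fell, the most without wild-type replicate 4, and a family median of 0.03 to 0.12. With array weights, which gave wild-type replicate 4 the lowest weight (0.1695), 29 rose and 15 fell, 19% and 9.8% of the family against 21.5% and 19.8% of all probe sets. After the trend with length was removed, 1 rose (col-170, limma, adjusted p = 0.0496) and 2 fell (col-135 and col-168), where 0.62% and 1.13% of all probe sets did. With wild-type replicate 4 left out as well 44 rose, 10 fell and the median was 0.31, in place of 0.07. Those were 28.8% and 6.54% of the family, against 16.5% and 17.3% of all probe sets. The rising share was thus above that of all probe sets, whereas without replicate 4 alone it was below (17% against 19.3%). Without the dimmest 40% of rows, which held col-12 and left 71 members, 1 fell, and at an adjusted p of 0.01, 0 fell. With the replicate number as a block 1 fell, col-135 (adjusted p = 0.0406), and col-12 did not pass (adjusted p = 0.0713). The labels do not say whether the numbers pair the samples. Same-numbered deviations correlated at 0.186, -0.107, 0.370 and 0.274 for numbers 1 to 4. Wild-type replicate 4 correlated best with mutant replicate 2 (0.433), and wild-type replicate 3 with mutant replicate 3. Deviations sum to 0 within each group, so these values cannot decide the pairing. Quantile normalisation and subtraction of array medians left both counts at 0 and 2, as did a fold of at least 1.5 and the median over a gene's rows; eBayes with trend and robust gave 0 and 3. The cause was not tested. The count of 18 widely spread members was 12 to 17 with 1 mutant array left out.

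Some small differences changed sign, none past the test over all arrays. With the length trend removed the differences were 5.92e-04 for col-124, 0.19 for col-17, 0.062 for col-2 and 0.014 for col-80, and with replicate 4 left out as well 0.070, 0.45, 0.065 and 0.21, and 0.037 for col-181. With array weights col-17 stood at 0.087 and col-80 at 0.059. Leaving out 1 array gave -0.29 to 0.22 for col-17, -0.34 to 0.011 for col-80, -0.014 to 0.29 for col-7, -0.27 to 0.47 for col-160, -0.26 to 0.32 for col-178, -0.25 to 0.84 for col-161, -0.11 to 0.59 for col-139, -0.045 to 0.58 for col-129 and -0.045 to 0.59 for col-38.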

Other observations

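Some genes outside the col family, the collagen sqt-3 among them, had nearly the same pattern over the arrays as the 18 widely spread members. Of 1212 other genes whose mutant arrays spanned more than 1 log2 unit, 139 had a Pearson r of at least 0.9 with the mean profile of the 18 over the 8 arrays, after the group means were taken out. They were picked for this likeness, so r is a description with no test. The nearest was vig-1, a gene of the RNA silencing complex (r = 0.998). It read 9.85, 11.20, 9.92 and 10.74 in mutant replicates 1 to 4, against 9.87, 9.75, 9.89 and 11.20 in wild-type replicates 1 to 4. Also close were wrt-9, a hedgehog-related gene (r = 0.985), pck-1, a phosphoenolpyruvate carboxykinase (r = 0.985), gpb-1, a G protein beta subunit (r = 0.979), and icl-1, an enzyme of the glyoxylate cycle (r = 0.964). M163.16 had a wide span, at 8.54, 11.43, 8.35 and 10.58 in the mutants, against 6.96, 7.38, 7.06 and 11.42 in the wild type (r = 0.984).

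The opposite pattern was seen in nlp-30, an antimicrobial peptide gene of the epidermis (r = -0.967). It read 4.20, 3.14, 4.43 and 3.49 in the mutants, against 5.92, 6.41, 6.03 and 4.74 in the wild type, and it fell in the mutants (limma, adjusted p = 0.0423). Here mutant replicates 2 and 4 and wild-type replicate 4 were the lowest arrays of their groups.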
